A study of Homo sapiens with 2 samples.

Results

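The genes described here are 9 that release arachidonic acid from membranes and turn it into prostanoids and leukotrienes. They are the phospholipases PLA2G3 and PLA2G4A, the cyclooxygenases PTGS1 and PTGS2, the terminal synthases PTGES, PTGDS and PTGIS, and ALOX5 with its helper ALOX5AP. All probes whose gene name in the array files was one of these symbols were taken, which gave 14 of the 41000 probes and 9 of the 30238 gene names on the array. They were chosen by their log2 ratios on these same arrays, so every ratio below is a description and carries no test.

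The A2780 line was derived from a human ovarian carcinoma. A2780CBN was selected in rising doses of carboplatin up to 22.2 µM, and A2780CBNDXL in rising doses of carboplatin and docetaxel together. For the combination the sample labels give 8.02 µM. In the study's text this is the inhibitory concentration of carboplatin for A2780CBNDXL under both drugs, with docetaxel far lower. That text gives another terminal dose, so 8.02 µM is not taken here as the last dose of the selection. Each line was compared with drug-free A2780 cells kept in culture alongside it, named A2780CC in both cases, and each line gave 1 sample, a pool of 3 RNA isolations. That sample was hybridized with its control to 4 arrays, where arrays 1 and 3 were forward labelled (line in Cy5) and arrays 2 and 4 reverse labelled (line in Cy3). The arrays repeat 1 sample, so the SD over 4 arrays holds the error of labelling and hybridization but not that of cultures, across which nothing could be tested. RNA of cells in bulk cannot tell fewer cells with a transcript from less transcript per cell.

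Phospholipases A2 cut arachidonic acid from membrane phospholipids, cyclooxygenases convert it to prostaglandin H2, and each terminal synthase makes its own prostanoid from that intermediate. In a parallel branch 5-lipoxygenase, presented with its substrate by the protein that ALOX5AP encodes, makes the first leukotriene. PTGS2 is the inducible cyclooxygenase of many carcinomas and PTGS1 the form made constitutively in many tissues, while the leukotriene branch is best known from leukocytes.

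On these arrays 59.8% to 67.5% of spots were well above background per channel, no spot was saturated, and within a line the ratios of reverse arrays, once turned, correlated with those of forward arrays at 0.58 to 0.74. Arrays of the same labelling direction correlated at 0.85 to 0.90, so part of the spread of the ratios went with the labelling. Of 8 epithelial and ovarian carcinoma markers, KRT8, KRT18 and PAX8 were well above background in both channels of both lines, whereas CDH1, WT1 and MUC16 were above it on no array. Of 10 leukocyte markers, 5 or 6 were above background on all 4 arrays in each channel. CD14, CD68, TYROBP, FCER1G and CD3E were so in every channel, and ITGAM in the line channel of A2780CBNDXL. PTPRC, CSF1R, LYZ and MS4A1 were above it on no array. These markers went both ways, and nothing is concluded from them. The endothelial genes PECAM1 and CDH5 were above background on no array, and VWF was above it on some arrays of each channel but never on all 4.

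A gene was called 2-fold different when its mean log2 ratio of line over control was at least 1 in size, had the same sign on all 4 arrays, and its probe was well above background in 1 of the channels on all 4. In A2780CBN 6 of the 9 genes had such a measured channel and 3 were called, PLA2G3 and PTGIS higher and PLA2G4A lower, where 12.6% of all 17951 measured genes were called (8% higher, 4.55% lower). In A2780CBNDXL 5 of the 9 could be measured and 3 were called, PLA2G3, PLA2G4A and PTGS2, each lower, where 16.9% of 17116 measured genes were called (7.7% higher, 9.2% lower). Nothing is read from these shares, since the ratios chose the genes. Where line and control signals are said below to lie apart, this describes repeat arrays of 1 sample. The share of all genes whose channels lay apart was not counted. PTGS2 in A2780CBNDXL, and PLA2G4A and PTGIS in A2780CBN, had 1 channel above background on all 4 arrays and the other on none. Their lying apart is therefore not counted as a further result. The order of the results below follows the pathway from the phospholipases to the leukotriene branch.

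**Figure D1:**
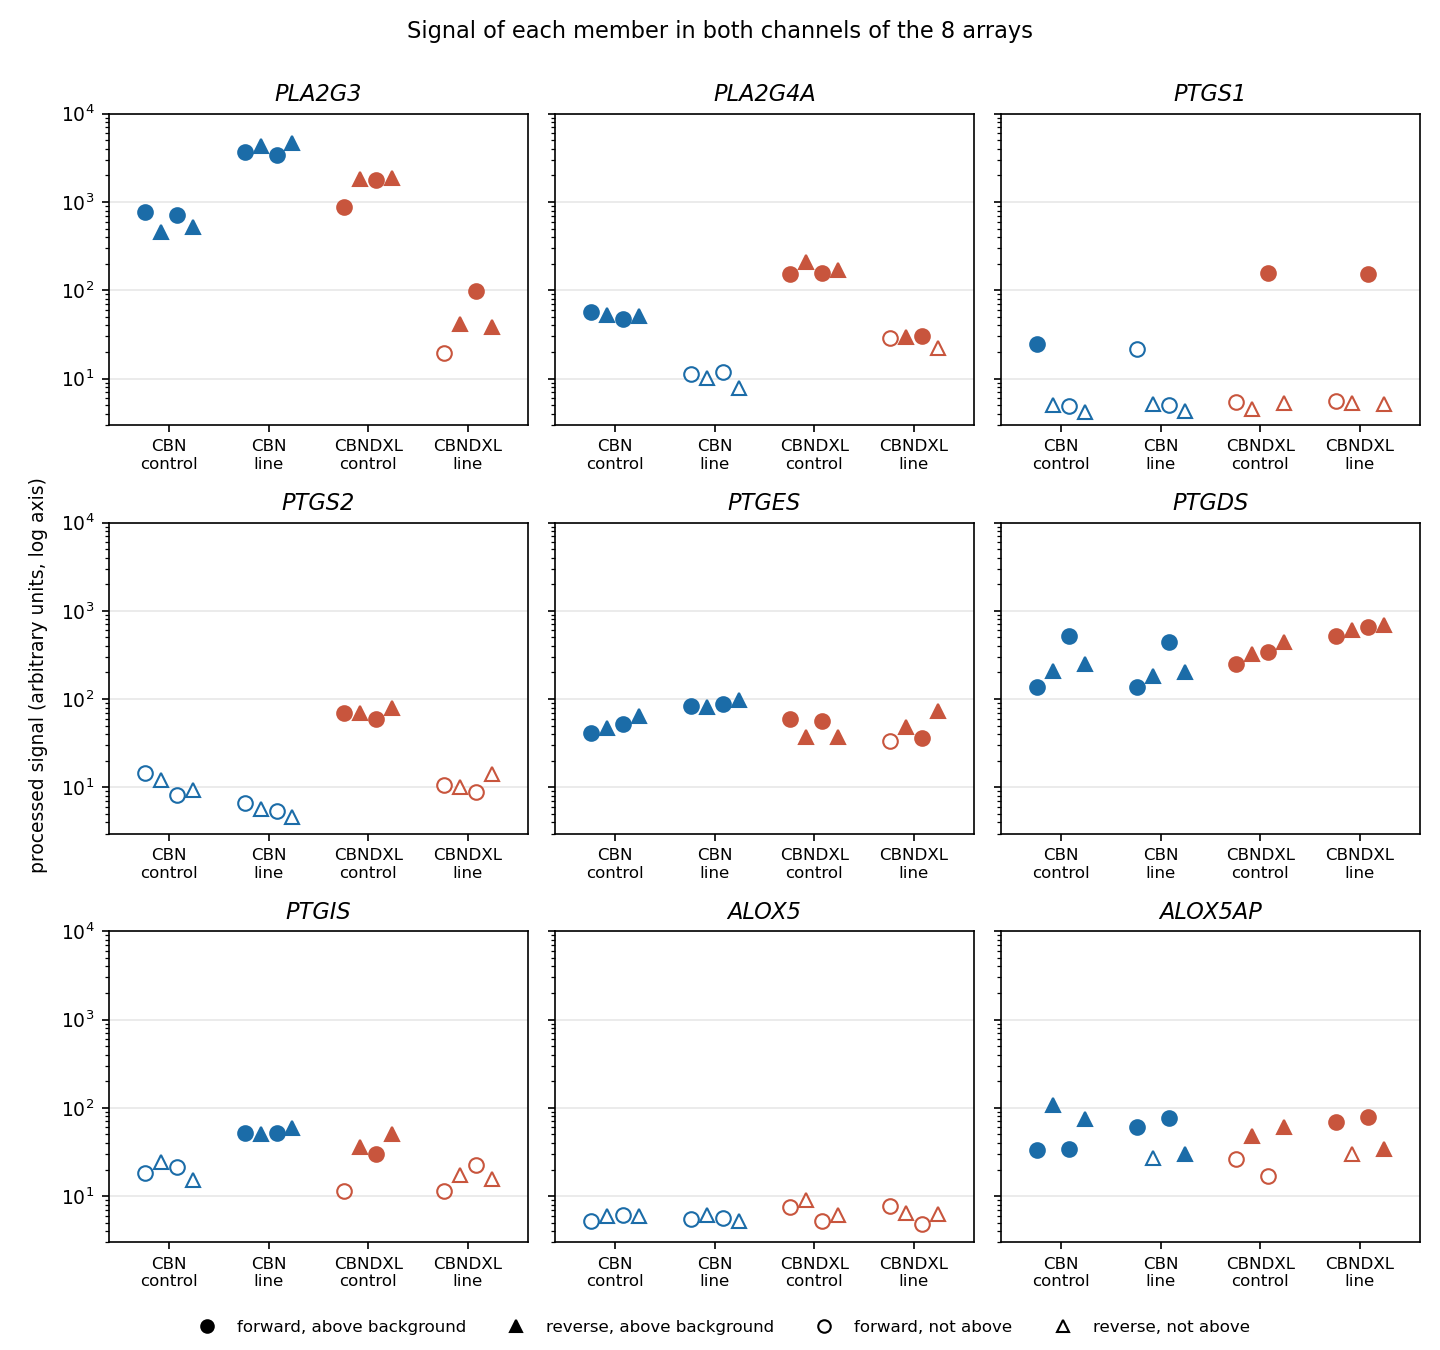
Processed signal of each gene's brightest probe (arbitrary units, log axis) in the control and line channels of the 4 arrays of A2780CBN (blue) and the 4 of A2780CBNDXL (red). Circles are forward and triangles reverse labelled arrays, and open symbols were not well above background. PLA2G3 lay between 3366 and 4646 in A2780CBN but between 19.4 and 97.7 in A2780CBNDXL, with both controls in between, and ALOX5 was open throughout.

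PLA2G3 encodes a secreted phospholipase A2, and it was the gene with the largest ratios among the 9, in opposite directions in the lines. In A2780CBN its signal on arrays 1 to 4 was 3692, 4364, 3366 and 4646 in the line against 771, 456, 711 and 517 in the control. In A2780CBNDXL the line gave 19.4, 41.8, 97.7 and 38.9 against 871, 1811, 1775 and 1857 in the control. The channels did not overlap in either line, and the line channel of A2780CBNDXL was well above background on 3 of 4 arrays. The mean log2 ratio was 2.73 ± 0.56 (SD, n = 4 arrays) in A2780CBN, a 6.64-fold higher level, and -5.17 ± 0.66 (SD, n = 4 arrays) in A2780CBNDXL, a 36.0-fold lower level. In A2780CBN the ratios were 2.26 and 2.24 on the forward arrays and 3.26 and 3.17 on the reverse arrays, so their spread went with the labelling. Array 3 of A2780CBNDXL stood apart with -4.18, the others lying between -5.58 and -5.44, and without it the mean was -5.50. Being called in opposite directions in the lines was seen in 296 of the 16131 genes measured in both, or 1.83%.

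A second PLA2G3 probe, at 29861300 to 29861359 on chromosome 22 of NCBI36 beside the first at 29860851 to 29860910, gave the same directions. Its line signals in A2780CBN were 556, 476, 485 and 430.0 against 98.4, 116, 80.6 and 133 in the control, a mean log2 ratio of 2.20 ± 0.42 (SD, n = 4 arrays). In A2780CBNDXL they were 12.2, 14.3, 34.6 and 7.18 against 135, 150.5, 217 and 141, a mean of -3.45 ± 0.67 (SD, n = 4 arrays), with the line above background on 1 of 4 arrays, so that this ratio is limited by the background. The signals of the channels lay apart on all 8 arrays for both probes. The 3 genes whose ratios over the 8 arrays were nearest to those of PLA2G3, among 11637 named genes measured in the same channel on all of them, were BCAN, PCDH15 and TBC1D8B, at root mean square distances of 0.72, 0.93 and 0.93 in log2 ratio. BCAN, a proteoglycan of brain matrix, had 1.77 ± 0.77 in A2780CBN and -5.17 ± 0.44 in A2780CBNDXL.

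**Figure D2:**
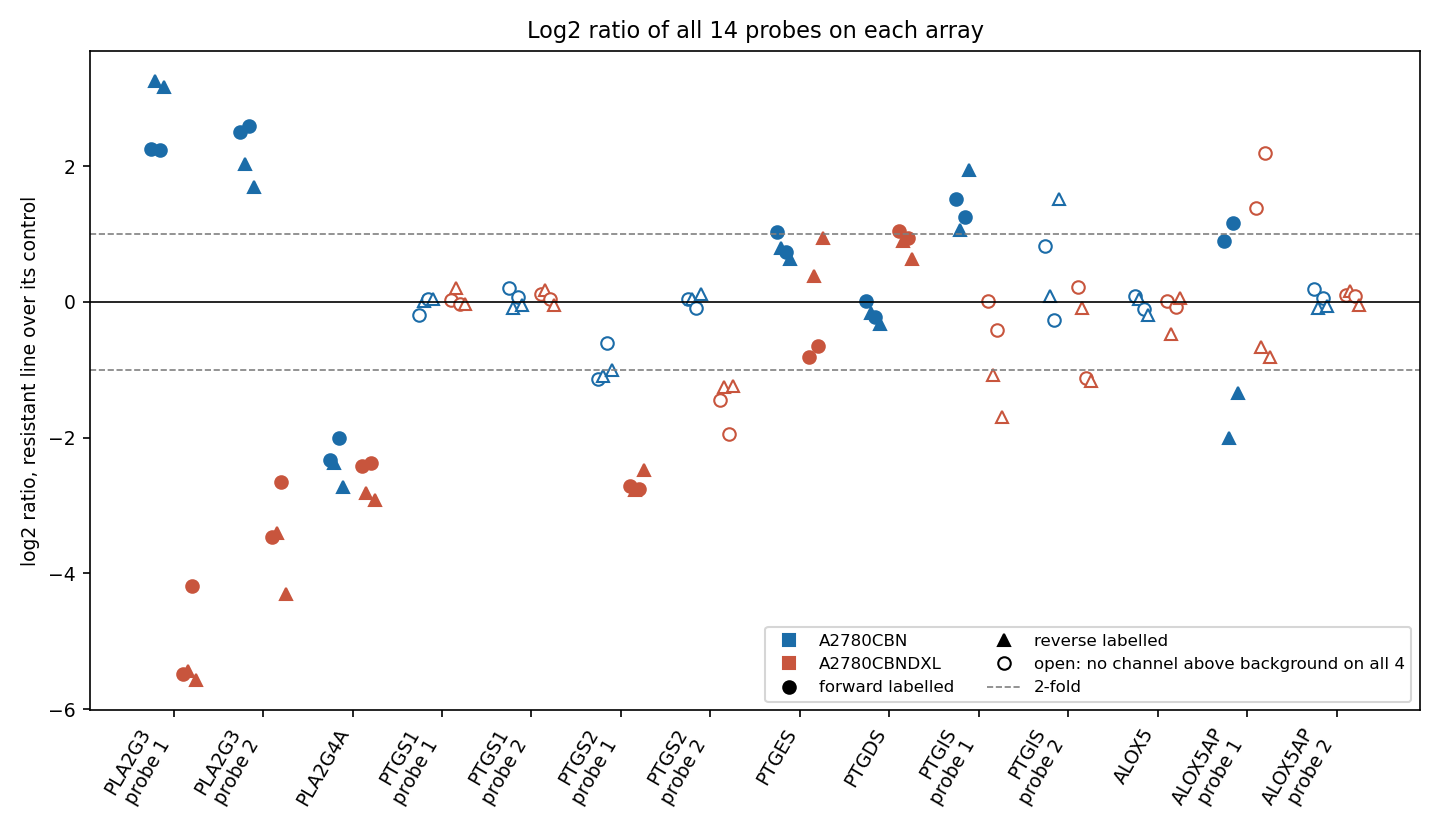
Log2 ratio of resistant line over its control on each array for all 14 probes, with A2780CBN in blue, A2780CBNDXL in red, forward labelled arrays as circles and reverse labelled ones as triangles. Open symbols mark probes without a channel above background on all 4 arrays, and dashed lines mark 2-fold. Both PLA2G3 probes lay at 1.69 or above in A2780CBN and at -2.65 or below in A2780CBNDXL, and the first ALOX5AP probe changed sign with the labelling in both lines.

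PLA2G4A encodes the cytosolic phospholipase A2 that acts ahead of the cyclooxygenases, and it was lower than the control in both lines. Its probe stands in 10 spots on each array, at 185224275 to 185224334 on chromosome 1 of NCBI36. In A2780CBN the line signals were 11.2, 10.2, 11.8 and 7.77 against 56.1, 52.9, 47.4 and 51.6 in the control. None of these line signals was well above background, so that the level was at least 2.32-fold lower (channel values scaled between arrays, lowest signal above background set as the floor), beside a measured mean log2 ratio of -2.36 ± 0.29 (SD, n = 4 arrays). In A2780CBNDXL the line gave 28.9, 29.2, 30.2 and 22.3, above background on 2 arrays, against 154, 207, 156 and 169.6, a mean of -2.63 ± 0.28 (SD, n = 4 arrays). No line signal reached a control signal in either comparison, and no spot of the 8 to 10 used per array had a ratio above -0.88 in A2780CBN or above -1.89 in A2780CBNDXL. Being called in the same direction in both lines was seen in 646 genes, or 4% of those measured in both. The nearest genes over the 8 arrays were TRIM64, RASGRP2 and PRTG, at distances of 0.35, 0.38 and 0.46.

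PTGS2, the inducible cyclooxygenase, was lower in A2780CBNDXL and could not be measured in A2780CBN. On the arrays of A2780CBNDXL the line signals were 10.6, 10.1, 8.85 and 14.1 against 69.4, 68.9, 59.7 and 78.8 in the control. No line signal was well above background and all control signals lay above all line signals. With the floor used for PLA2G4A the level was at least 3.33-fold lower, beside a measured mean log2 ratio of -2.68 ± 0.13 (SD, n = 4 arrays). This probe also has 10 spots per array, at 184908092 to 184908151 on chromosome 1 of NCBI36, and the ratios of its spots on the 4 arrays lay between -3.68 and -1.01. In A2780CBN the line signals of 4.66 to 6.63 and the control signals of 8.21 to 14.5 were all at background, and no ratio is given. A second PTGS2 probe was at background in both channels of both lines, with 4.56 to 5.84 in the line and 13.3 to 17.6 in the control of A2780CBNDXL. PDK1, BDNF and HOXB4 were nearest to PTGS2 over the 8 arrays, its A2780CBN values at background included, at distances of 0.28, 0.29 and 0.30.

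PTGS1, the constitutive cyclooxygenase, had 2 probes and was not measured in either line. The brighter probe was well above background in both channels of a single array, array 3 of A2780CBNDXL, with 153 in the line and 157 in the control, while the other 3 arrays of that line gave 4.56 to 5.6 in either channel. In A2780CBN the same probe gave 21.4 in the line and 24.4 in the control on array 1, of which the control was above background, and at most 5.12 on the others. A signal on 1 array of a repeated sample is not a level of that sample.

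PTGS2 and PLA2G4A are neighbours on chromosome 1, with 316183 bases between the starts of their probes on NCBI36, and were lower together in A2780CBNDXL. Within 1000000 bases on either side the array held probes of 9 other names, of which 3 were measured, and none of those 3 was called in A2780CBN or in A2780CBNDXL. Their promoters are shown because these genes moved in the same direction and the windows differ in the motifs they hold. Of the 9 genes 6 matched a promoter of RefSeq on GRCh38.p14, and those of PLA2G3, PTGIS and ALOX5 were not used here. Each line gives the 250 bases before the transcript start, 5′ to 3′ on the strand of the gene, and capitals mark matches to 5 motifs on either strand.
PTGS2 (GRCh38.p14, chr1:186680424-186680673, minus strand): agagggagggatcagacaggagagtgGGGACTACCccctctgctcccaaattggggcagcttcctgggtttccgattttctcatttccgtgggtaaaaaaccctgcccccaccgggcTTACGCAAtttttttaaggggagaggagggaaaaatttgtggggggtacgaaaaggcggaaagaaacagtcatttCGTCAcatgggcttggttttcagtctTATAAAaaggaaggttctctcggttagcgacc
PLA2G4A (GRCh38.p14, chr1:186828699-186828948, plus strand): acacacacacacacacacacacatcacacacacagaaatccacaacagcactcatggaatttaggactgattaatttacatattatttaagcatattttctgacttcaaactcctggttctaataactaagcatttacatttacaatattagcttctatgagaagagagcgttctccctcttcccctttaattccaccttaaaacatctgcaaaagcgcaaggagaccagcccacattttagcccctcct

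The motifs searched were the TATA box TATAAA, the cyclic AMP element half-site TGACG, a 9-base NF-kB-like site GGGANNNCC, the C/EBP site TTNNGCAA and the AP-1 site TGANTCA. The PTGS2 window held 4 matches, an NF-kB-like site from base 224 before the start, a C/EBP site from base 133, a half-site on the opposite strand from base 58 and a TATA box from base 32, each counted at the 5′ end of the match on the strand of the gene. Over 35116 promoter windows of this length these motifs stood in 20.1%, 9.05%, 21.2% and 10.72%, and the AP-1 site in 6.57%. The PLA2G4A window held none of the 5, and its GC content was 38.8% against 50.4% for PTGS2 and a median of 58% over all windows. NF-kB-like sites also stood in the windows of PTGES, PTGDS and ALOX5AP, a C/EBP site in that of PTGDS, and a TATA box in a window of PTGS1. None of these genes was called in either line. A match is a run of letters and was not shown here to be a bound site.

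The 3 terminal synthases each behaved differently. PTGIS, which makes prostacyclin, gave 51.8, 50.6, 51.3 and 58.6 in A2780CBN against 18.1, 24.2, 21.5 and 15.2 in the control, with all line signals above all control signals. No control signal was well above background, so the level was at least 2.37-fold higher, beside a measured mean log2 ratio of 1.44 ± 0.38 (SD, n = 4 arrays). In A2780CBNDXL the PTGIS line signal of 11.5 to 22.6 was above background on no array and the control on 3 of 4, which left no measured ratio. A second PTGIS probe was at background in all channels.

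PTGES, the microsomal prostaglandin E synthase, was above its control on 4 of 4 arrays of A2780CBN, with line signals of 83.9, 81.3, 87.4 and 98.9 against 41.3, 47.0, 52.4 and 63.9. The mean log2 ratio of 0.79 ± 0.17 (SD, n = 4 arrays) was under the 2-fold limit, and the gene was not called. In A2780CBNDXL the PTGES ratios were -0.81, 0.39, -0.65 and 0.95 on arrays 1 to 4, negative on the forward and positive on the reverse arrays. Their mean of -0.03 ± 0.84 (SD, n = 4 arrays) is an average of values that changed sign with the dye. PTGDS, the lipocalin-type prostaglandin D synthase, gave 522, 599, 663 and 682 in A2780CBNDXL against 252, 323, 345 and 439 in the control. Its mean log2 ratio of 0.88 ± 0.18 (SD, n = 4 arrays) was also under the limit. In A2780CBN its channels overlapped, and the mean was -0.17 ± 0.14 (SD, n = 4 arrays).

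ALOX5, the enzyme of the leukotriene branch, was at background in both channels of all 8 arrays, with signals of 4.88 to 9.0. ALOX5AP was above background in 1 channel or both on every array, but its sign followed the dye and not the cells. The red channel was brighter whichever RNA it carried, with a log2 ratio of red over green of 1.31 ± 0.55 (SD, n = 8 arrays) and a range of 0.67 to 2.20. Of 16034 genes above background in the same kind of channel on all 8 arrays, red over green had 1 sign on all of them in 299 (1.86%) and also reached a mean of 1 in size in 6. ALOX5AP itself is not among the 16034, since neither kind of channel was above background on all 8 arrays. The ALOX5AP ratios of A2780CBN were 0.90, -2.0, 1.17 and -1.34, so its mean of -0.32 ± 1.59 (SD, n = 4 arrays) gives no direction. A second ALOX5AP probe was at background throughout.

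Whether a ratio differed between the lines through the resistant cells or through their controls was examined by comparing like channels on arrays matched by slide and dye, after scaling between arrays. In the resistant lines PLA2G3 was lower in A2780CBNDXL than in A2780CBN by a log2 difference of -6.67 ± 0.90 (SD, n = 4 array pairs), and in the controls it was higher by 1.24 ± 0.68. A 2-fold difference on all 4 pairs was seen in 16.5% of 17083 genes between the lines and in 4.58% of 16871 genes between the controls. PLA2G4A was higher in the control of A2780CBNDXL by 1.63 ± 0.13 (SD, n = 4 array pairs). The measured PTGS2 difference between the controls was 2.5 ± 0.36 (SD, n = 4 array pairs), at least 2.89-fold higher in the control of A2780CBNDXL because the other control was at background on all 4 arrays. For both genes the control of A2780CBNDXL was the brighter of the 2 controls on all 4 pairs. Against the control of the other line, measured with the same scaling, PLA2G4A in A2780CBNDXL had a log2 ratio of -1.0 ± 0.18, with the line channel above background on 2 of 4 arrays. For PTGS2 both channels of that comparison were at background and no ratio is given.

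Where both ratios were measured, that of A2780CBNDXL minus that of A2780CBN had a mean of at least 1 in size and the same sign on all 4 pairs for 2 of 4 members, against 16.6% of 16131 genes. These were PLA2G3, with -7.90 ± 1.09, and PTGDS, with 1.05 ± 0.08 (SD, n = 4 array pairs).

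**Figure D3:**
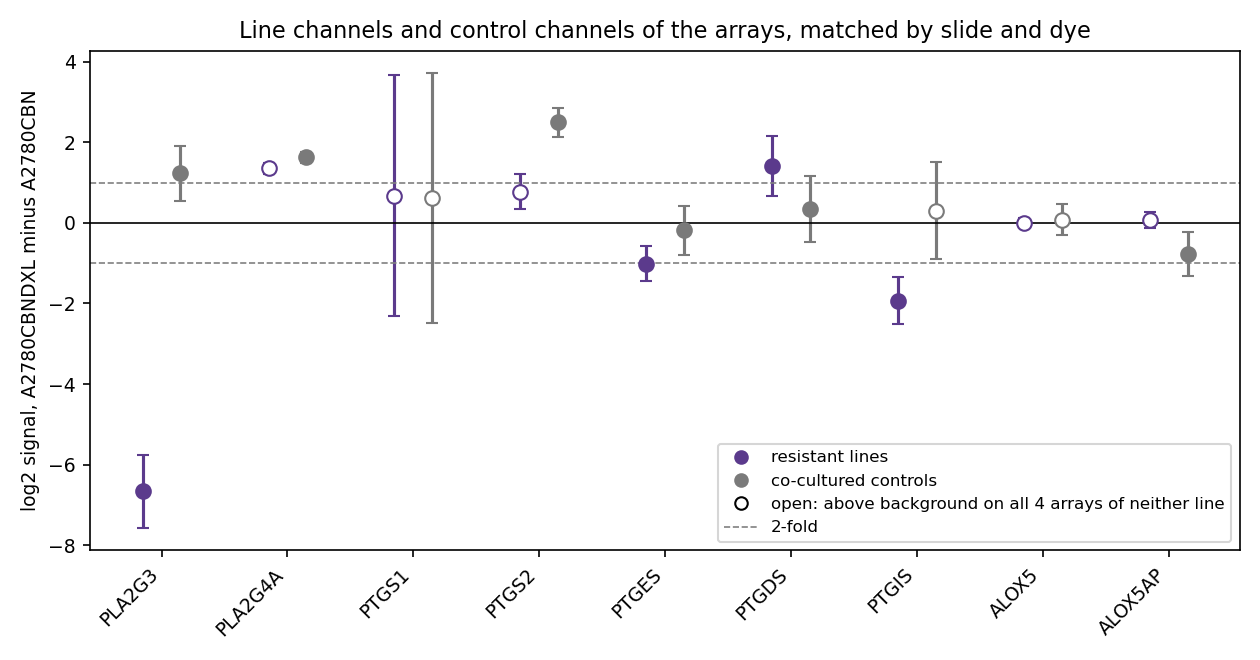
Log2 signal of A2780CBNDXL minus A2780CBN in the resistant line channels (purple) and the control channels (grey) for the 9 genes, as mean and SD over 4 array pairs matched by slide and dye. Open symbols were above background on all 4 arrays of neither line, and dashed lines mark 2-fold. The filled purple point of PLA2G3 lies at -6.67 and the filled grey point of PTGS2 at 2.5, and the wide bars of PTGS1 come from its single bright spots.

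Fibroblast markers also differed between the 2 experiments. The summed signal of 4 of 5 such genes (COL1A1, COL1A2, DCN and LUM) was 641 to 801 in A2780CBN and 1612 to 1983 in its control, against 7540 to 9259 in A2780CBNDXL and 6722 to 8286 in its control, and THY1 was left out of the sum for an outlier spot. All 5 were above background on all 4 arrays in both channels of A2780CBNDXL, and 3 of 5 in each channel of A2780CBN. The part of this difference in the higher PLA2G4A and PTGS2 signal of the A2780CBNDXL control was not tested. Among the synthases the resistant lines differed for PTGIS, at least 2.61-fold lower in A2780CBNDXL with a measured log2 difference of -1.93 ± 0.59 (SD, n = 4 array pairs). PTGES differed by -1.01 ± 0.43 and PTGDS by 1.41 ± 0.75 (SD, n = 4 array pairs). Without scaling between arrays the differences of PTGIS, PTGES and PTGDS were -1.70, -0.95 and 1.49, so that PTGES fell under the 2-fold limit. Neither PTGES nor PTGDS reached 2-fold between the controls, with -0.19 ± 0.61 and 0.35 ± 0.82.

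The rest of the pathway was read from a list of 62 other genes, 60 of them on the array. In A2780CBN 32 were measured, of which 5 were called higher and 1 lower, and their median log2 ratio was -0.07 beside -0.06 over all measured genes. In A2780CBNDXL 29 were measured, of which 8 were called higher and 1 lower, with a median of 0.31 beside 0.04. Over all measured genes 8% were called higher and 4.55% lower in A2780CBN, and 7.7% and 9.2% in A2780CBNDXL. These shares also stand beside the counts by role given below. The list was drawn up with earlier results of these arrays known, and its counts describe these samples only.

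PTGER2, the EP2 receptor for prostaglandin E2, was higher in both lines, by a log2 ratio of 1.21 ± 0.36 in A2780CBN and 4.05 ± 0.22 in A2780CBNDXL (SD, n = 4 arrays). Its mean signal in A2780CBNDXL was 932 against 55.7 in the control. Of 9 prostanoid receptors it was the 1 called, and 2 or 3 were measured per line. PLA2G2F and PLA2G4C, a secreted and a cytosolic phospholipase, were also higher in both lines, with 1.94 ± 0.32 and 1.98 ± 0.46 in A2780CBN. In A2780CBNDXL PLA2G4C had 1.45 ± 0.10, and PLA2G2F had 2.08 ± 0.33 with a control at background, at least 3.18-fold. PLAAT3, a phospholipase of fat tissue listed on the array under an older symbol, went the other way in A2780CBNDXL, -3.69 ± 0.09 with a mean of 343 against 4435 in the control, and was 0.81 ± 0.54 and under the limit in A2780CBN.

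Of 7 other terminal prostanoid synthases on the list, 1 was called higher and 1 lower among 6 measured in A2780CBN, and 2 were called higher among 5 measured in A2780CBNDXL. With 1 sample per line, no difference of these genes between the lines was tested on the arrays. For AKR1C3 the study itself reported a significant difference between A2780CBN and A2780CBNDXL by quantitative PCR. AKR1C3, a prostaglandin F synthase, had a line channel at background in A2780CBN, at least 2.5-fold lower (measured -1.62 ± 0.31), and was higher by 2.87 ± 0.24 in A2780CBNDXL. CBR1, a carbonyl reductase acting on prostaglandins, had 1.74 ± 0.28 in A2780CBNDXL and -0.74 ± 0.40, under the limit, in A2780CBN. TBXAS1, thromboxane synthase, was higher in A2780CBN by 1.59 ± 0.24 and had -0.58 ± 0.04 in A2780CBNDXL. In the leukotriene branch LTC4S and MGST3, which conjugate leukotriene A4 to glutathione, had 1.38 ± 0.37 and 1.27 ± 0.13 in A2780CBNDXL, and CYSLTR2, a cysteinyl leukotriene receptor, was at least 1.96-fold higher in A2780CBN with widely spread ratios (2.11 ± 1.38). EPHX2, the soluble epoxide hydrolase of the cytochrome P450 branch, had 2.19 ± 0.04 in A2780CBNDXL and -0.38 ± 0.09 in A2780CBN.

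**Figure D4:**
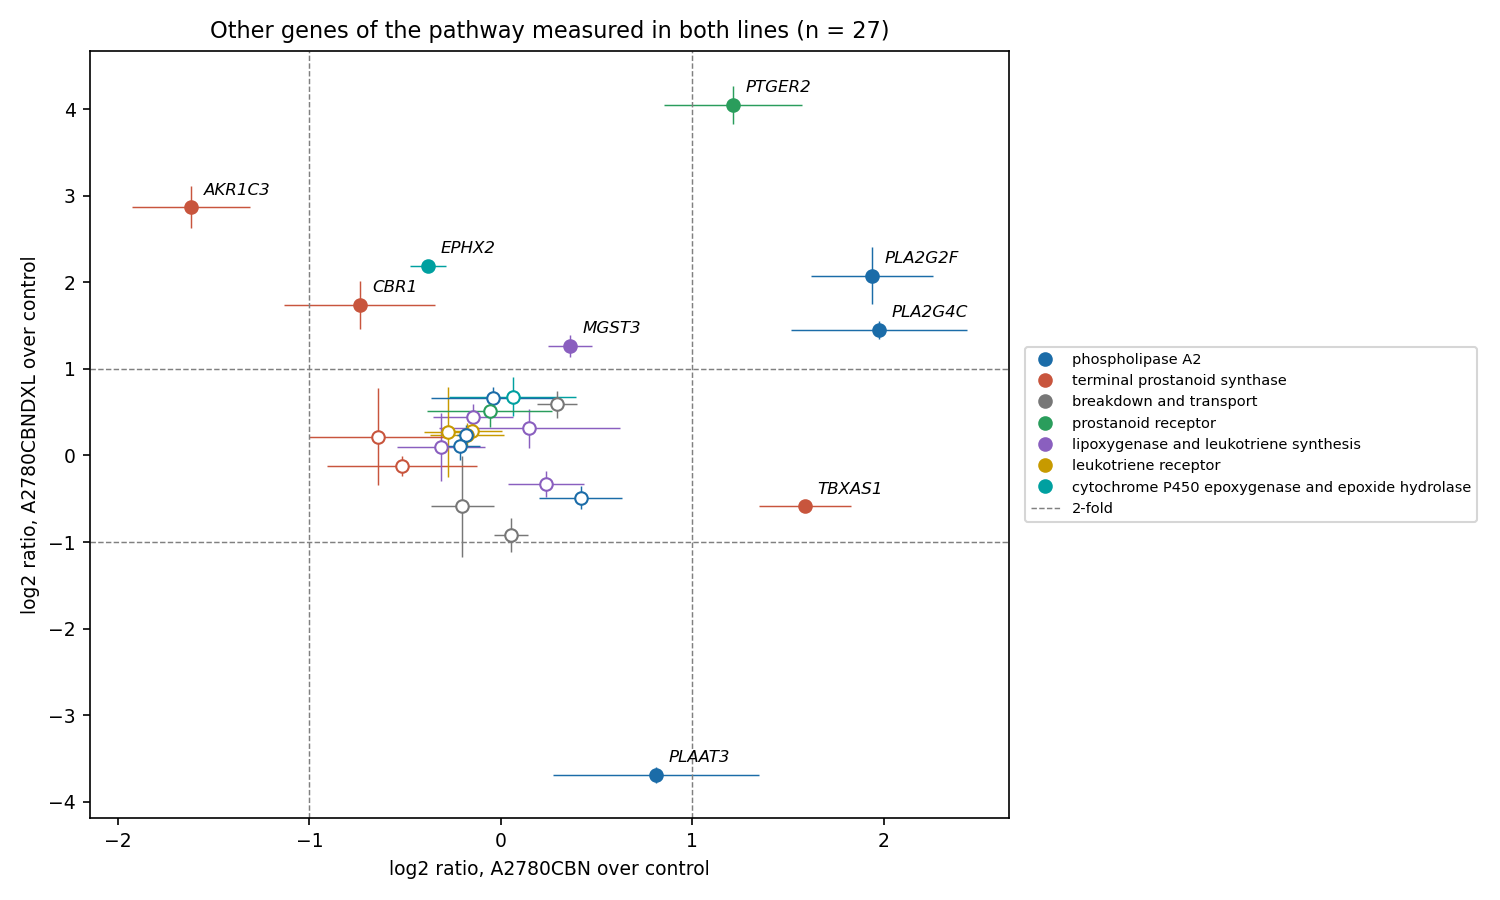
Mean log2 ratio over control in A2780CBN (horizontal) and A2780CBNDXL (vertical) of the 27 other pathway genes measured in both lines, coloured by role, with bars giving the SD of 4 arrays. Filled points with names were called in 1 of the lines or both, and dashed lines mark 2-fold. PTGER2 lies highest at 4.05, PLAAT3 lowest at -3.69, and 18 genes were called in neither line.

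The values of the dim genes depended on the processing. With normexp background correction, an offset of 50 and loess normalization, PLA2G3 stayed past 2-fold in both lines (2.17 and -2.49), while PLA2G4A came to -0.21 in A2780CBN and -0.63 in A2780CBNDXL, PTGS2 to -0.30 and PTGIS to 0.16. This setting starts from the raw intensities and changes background correction, offset and normalization together. The part of each in these lower ratios was not tested. With background-subtracted signals centred on the median, PLA2G4A had -2.40 in A2780CBN and -2.67 in A2780CBNDXL, PTGS2 -2.92 and PTGIS 1.66. The directions of these 6 ratios did not turn.

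**Figure D5:**
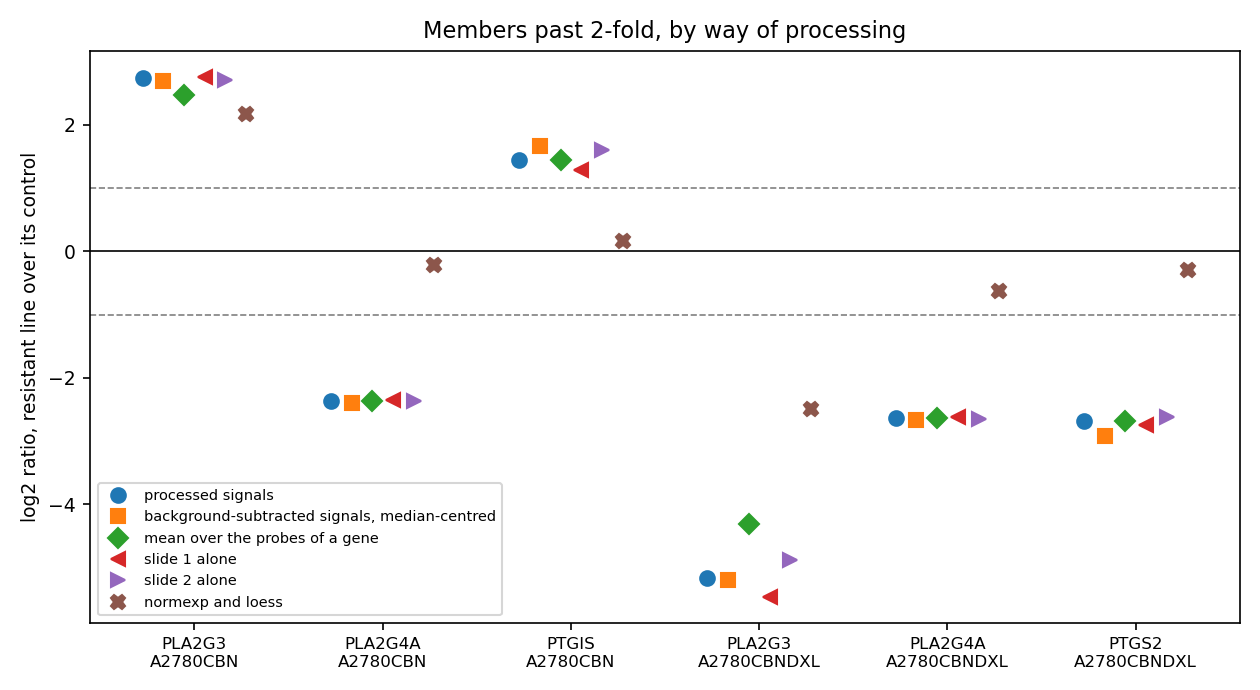
Log2 ratio of line over control for the 6 gene and line combinations past 2-fold, under the processed signals and 5 other ways of processing, with dashed lines at 2-fold. The crosses (normexp and loess) of PLA2G4A, PTGIS and PTGS2 fall inside the 2-fold lines, between -0.63 and 0.16, and those of PLA2G3 stay outside at 2.17 and -2.49.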

How the data were processed

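Expression was measured on 8 two-colour Agilent whole human genome arrays, 4 for each of 2 lines. The files hold the authors' output of Agilent Feature Extraction (10.7.1.1 on the first slide, 10.7.3.1 on the other), with probes placed on NCBI36. The deposited processed intensity of each channel had been background-subtracted and dye-normalized by the authors, with a surrogate near background. The raw mean, background and background-subtracted intensities deposited beside it were used in alternatives only. Per the labels of the forward arrays the line carries Cy5. The dye entries of the reverse arrays conflict with their name and the methods, and the name was followed: unturned, forward and reverse ratios correlated at -0.74 to -0.58.

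Outlier spots were left out, spots of a probe averaged, and log2 ratios averaged over forward and over reverse arrays, then over these 2 means. A probe was well above background on an array when at least a share of 0.5 of its spots was. Each gene was represented by its brightest probe. Bounds and comparisons of like channels used Aquantile-scaled values. The floor of a bound was the lowest signal flagged above background on the array. Brighter signals of other probes can go unflagged, so "at least" holds for this floor only. With 1 sample per line no test across samples was run. The number of arrays limits the precision.

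The genes, the lists and the alternatives were chosen with earlier results of these data known. Named are all 9 genes, the called genes of the pathway list (up to 6 per direction and line by size, to which LTC4S and MGST3 were added after their values were seen), the 3 nearest genes of the 3 members with the largest ratios, and markers. Alternatives were normexp with loess, background-subtracted signals centred on the median, no filter or both channels above background, limits of 1.5 and 3, the mean over probes, limma and the 3-way ANOVA of the methods on the arrays with an adjusted p limit of 0.05, slide as a block, each slide alone, each array left out, and no Aquantile scaling. Simulated arrays had 100 genes changed 4-fold and 100 changed 16-fold. The 2-fold rule recovered 99 and 100 among 17951 genes of A2780CBN, with 2 false calls. Among 17116 genes of A2780CBNDXL it recovered 100 of each, with 1 false call. The simulation had no background floor and no filter on dim probes, so it says nothing on genes near background. Arrays of A2780DXL, a docetaxel line, are not used here. The fits ran in R 4.3.3 with limma 3.58.1. All else ran in Python 3.11.15 with pandas 2.3.3, numpy 2.4.6 and scipy 1.17.1, and figures were drawn with matplotlib 3.10.9.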

Additional observations from a re-analysis of the deposited data

Results flagged for a closer look

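The log2 ratio of PLA2G3 in A2780CBNDXL was singled out because array 3, at -4.18, lay far from the other 3 arrays: its gap to the nearest of them was 0.898 of the whole range of the 4 arrays. The limit used is passed by chance in about 1 of 20 groups. PLA2G3 was singled out a second time because its ratio lay above 0 on all 4 arrays of A2780CBN, with a mean of 2.73, and below 0 on all 4 arrays of A2780CBNDXL, with a mean of -5.17. With 1 sample per line this difference between the lines was not tested.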

How the results depend on the processing

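With normexp and loess PLA2G3 was the 1 member called in each line, 1 of 6 measured in A2780CBN and 1 of 5 in A2780CBNDXL, 1 of 32 pathway genes was called in A2780CBN and 7 of 29 in A2780CBNDXL, and 604 (3.36%) and 1172 (6.85%) genes were called in all. Asking for both channels above background left 1 member (PLA2G3) in A2780CBN and 0 in A2780CBNDXL, where PTGDS alone could be measured, beside 9.07% and 12.6% of all genes so measured. Over all genes a 1.5-fold limit called 4860 and 5699, and a 3-fold limit 1121 and 1467. The ratio differed between the lines by a mean of at least 1 with 1 sign on all 4 array pairs for 2 of 4 members (PLA2G3 and PTGDS, where 16.6% of 16131 genes did so), for 1 with normexp and loess and for 1 with background-subtracted signals, and for 3 on slide 1 alone and without array 4, where PTGES reached -1.12 and -1.21. For the alternatives of this difference the share of all genes was not counted. On either slide alone or with any array left out, 3 members were called in A2780CBN and 3 or 4 in A2780CBNDXL. The fourth was PTGIS on slide 2 alone. Beside them 12.4% to 12.8% and 16.4% to 17.4% of all measured genes were called. These settings reuse the ratios that chose the genes, so the counts give no support. The limma fits and the ANOVA called 3 in each line, beside 12.4% to 12.6% of all genes in A2780CBN and 15.6% to 16.9% in A2780CBNDXL. They take repeat arrays as replicates and the genes were chosen by these ratios, so they give no support. No called ratio of a member changed sign under normexp, background-subtracted signals, the mean over probes, either slide or any array left out. No paired analysis was possible because each line is 1 sample and its arrays repeat that sample. Genes near background limit these data: PTGS1, PTGS2 in A2780CBN and ALOX5 could not be measured, and the channel at background sets the bounds of PLA2G4A, PTGS2 and PTGIS.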
